A study of Mus musculus with 2 samples.

Results

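A small population of progenitor-like cells that carry RNA of *Cd34* or *Kit* was described in Sc-RNA-Seq data of bone marrow cells (BMCs) from 1 WT and 1 Cko mouse. The cells were chosen by their counts of unique molecular identifiers (UMIs), each of which marks 1 captured RNA molecule. A cell belonged to the population when it held 2 or more UMIs summed over *Cd34* and *Kit* and lacked the RNA of maturing blood cells, which was set as under 3 UMIs of *Car1*, under 0.1% of its UMIs from *Mpo* and *Ctsg*, under 0.2% from *Elane* and *Prtn3*, under 5% from 6 neutrophil granule genes (*Camp*, *Ngp*, *Ltf*, *Lcn2*, *S100a8* and *S100a9*), under 1% from hemoglobin genes, no UMI of *Cd79a* or *Siglech*, and under 10 UMIs of *Prss34* and *Mcpt8*. These values chose the cells, so the levels of these genes are given as a description. Of 9933 cells, 54 met the rule, 29 in the WT and 25 in the Cko. The Cko mouse is C57BL6/J with site-1 protease (S1P, encoded by *Mbtps1*) ablated by Cre under the osterix (*Sp7*) promoter, which is active in bone-forming cells, and the mouse labelled WT has the same background. Both were at postnatal day 21, and the crushed bones of fore- and hindlimbs were digested with collagenase and the red blood cells lysed before the cells entered the droplets. The labels name this control by the word WT alone, and the study elsewhere describes its WT mice as S1P f/f, that is with both alleles floxed. Each genotype is 1 library, so no test between genotypes was possible, and mouse, library and genotype cannot be told apart.

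Hematopoietic stem cells sit at the top of the blood lineages and give rise to multipotent progenitors, which then become biased toward megakaryocytes and red cells, granulocytes and monocytes, or lymphocytes. KIT is the receptor for stem cell factor and stays on early erythroid progenitors and mast cells, whereas CD34 is a sialomucin carried by mouse multipotent and myeloid progenitors and also by endothelial cells. In flow cytometry, mouse stem cells are commonly gated as lineage-negative cells with KIT and SCA-1, the product of *Ly6a*, and are subdivided with CD150, the product of *Slamf1*, and CD48. FLT3 appears on multipotent progenitors with lymphoid potential, and IFITM1 and IFITM3 are interferon-induced membrane proteins that early progenitors also express.

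The WT library held 56382459 UMIs over 7181 listed genes and the Cko library 34447224 over 6735, with 6001 genes shared. The tables hold no gene whose count stays under 4 UMIs in all cells, so a gene missing from a table was not taken as 0. The 54 cells held between 3456 and 27098 UMIs, with medians of 7618 in the WT and 9769 in the Cko. No cell of the population was called a doublet, a droplet with more than 1 cell, by Scrublet, and no barcode of the population was also a cell of the other library, although 28 barcodes were shared between the libraries in all. The targeted gene *Mbtps1* had 22 UMIs in 13 WT cells and 14 in 10 Cko cells, or 78.4 CPM in WT cells and 50.2 CPM in Cko cells, where CPM is the count per 1000000 UMIs of the cells compared. The Cko over WT ratio was 0.641 (0.303 to 1.31), in which the bounds, as for every ratio below, are a 95% exact interval that covers counting error only. The deletion removes exon 2, and the libraries read the 3′ end of the transcript, so these UMIs do not check the deletion. *Sp7* was listed in the WT alone.

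The population made up 0.462% of WT cells (95% exact Clopper-Pearson interval 0.31 to 0.663) and 0.683% of Cko cells (0.442 to 1.01). The ratio of Cko to WT was 1.48 (0.829 to 2.61), an interval that includes 1. Erythroid cells took different shares of the libraries, and among cells with under 1% hemoglobin the share was 0.928% of 3126 WT cells and 0.787% of 3177 Cko cells. On that denominator the ratio was 0.848 (0.476 to 1.5), so the direction turned with the denominator and neither interval set the genotypes apart. Without the limits on *Mpo* and *Ctsg* and on *Elane* and *Prtn3*, which admits granulocyte-monocyte progenitors, the shares were 2.06% of WT and 3.99% of Cko cells, and the ratio of 1.94 (1.52 to 2.48) had an interval above 1. These were 129 WT and 146 Cko cells, all with under 1% hemoglobin. That ratio was taken over all cells. No interval was computed over the 3126 WT and 3177 Cko cells with under 1% hemoglobin, the denominator on which the main ratio turned. Those denominators are nearly equal, so 129 and 146 cells give a lower ratio there than over all cells. The interval above 1 thus holds for the share of all cells alone.

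The limit on *Cd34* and *Kit* was a narrow gate. Of the 54 cells, 27 held exactly 2 UMIs of the pair, 14 from the WT and 13 from the Cko library, and 45 WT and 20 Cko cells missed the population only because they held 1. Both genes were detected in 21 cells, *Cd34* alone in 19 and *Kit* alone in 14. The highest count in a cell was 8 UMIs of *Cd34* in the WT and 5 of *Kit* in the Cko. Cells that failed only the limit on *Car1*, a carbonic anhydrase of erythroid progenitors, numbered 48 among WT and 26 among Cko cells, with 3 cells of each library at 3 *Car1* UMIs, whereas the highest value within the population was 2. Cells that failed only the limit on *Mpo* and *Ctsg*, granule proteins of granulocyte-monocyte progenitors, numbered 22 among WT and 21 among Cko cells. The nearest of these had 0.101% (WT) and 0.104% (Cko) of their UMIs from the pair, and the highest cells within the population had 0.0856% and 0.0880%. These groups are called the *Car1* neighbours and the *Mpo* neighbours below and serve as the closest populations for comparison.

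*Ifitm1*, which the rule did not use, was detected in 18 of 29 WT cells and 15 of 25 Cko cells, at up to 15 UMIs in the WT and 12 in the Cko. With every cell thinned to 3000 UMIs, 51.7% of WT and 44% of Cko cells of the population held it, against 0.979% and 3.61% of B-lineage cells. B-lineage cells were defined by 3 or more *Cd79a* UMIs and under 1% of UMIs from hemoglobin genes. Unthinned, the B-lineage shares were 1.84% and 5.49% at median depths of 5867 and 6952 UMIs. Its level was 309.9 CPM in WT cells and 276 CPM in Cko cells, compared with 25.8 and 47.5 CPM in all other cells. *Ifitm1* was not particular to the population, since the *Mpo* neighbours held 498 (WT) and 409.6 CPM (Cko), but the *Car1* neighbours held only 4.11 and 3.92. The 3 marker genes lie on GRCm38 at chromosome 1, 194938819 to 194961279 (*Cd34*), chromosome 5, 75574916 to 75656722 (*Kit*), and chromosome 7, 140967221 to 140969825 (*Ifitm1*), all on the plus strand of the GENCODE annotation.

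The cells carried RNA of several lineages, and the name of stem and multipotent progenitor cells did not hold for all of them. By lists of marker genes, 20 cells stood apart from the rest. The limits were set after the counts were seen, and the cell nearest below each is given. Of the 54 cells, 8 held 62 to 260 UMIs of the erythroid list (the next cell held 31), 4 held 42 to 537 UMIs of the stromal and endothelial lists (next 3), 2 held 171 and 460 UMIs of the megakaryocyte list (next 20), and 3 held 138 to 171 UMIs of the granule genes (next 65). A further 3 held 114 to 140 UMIs of the monocyte and dendritic cell lists (next 59), and the Cko cell with stromal and endothelial RNA held 220 of these. The 34 cells left are called unmarked, 19 from the WT and 15 from the Cko, and they are shown beside the marked cells in the plot of every cell.

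**Figure D1:**
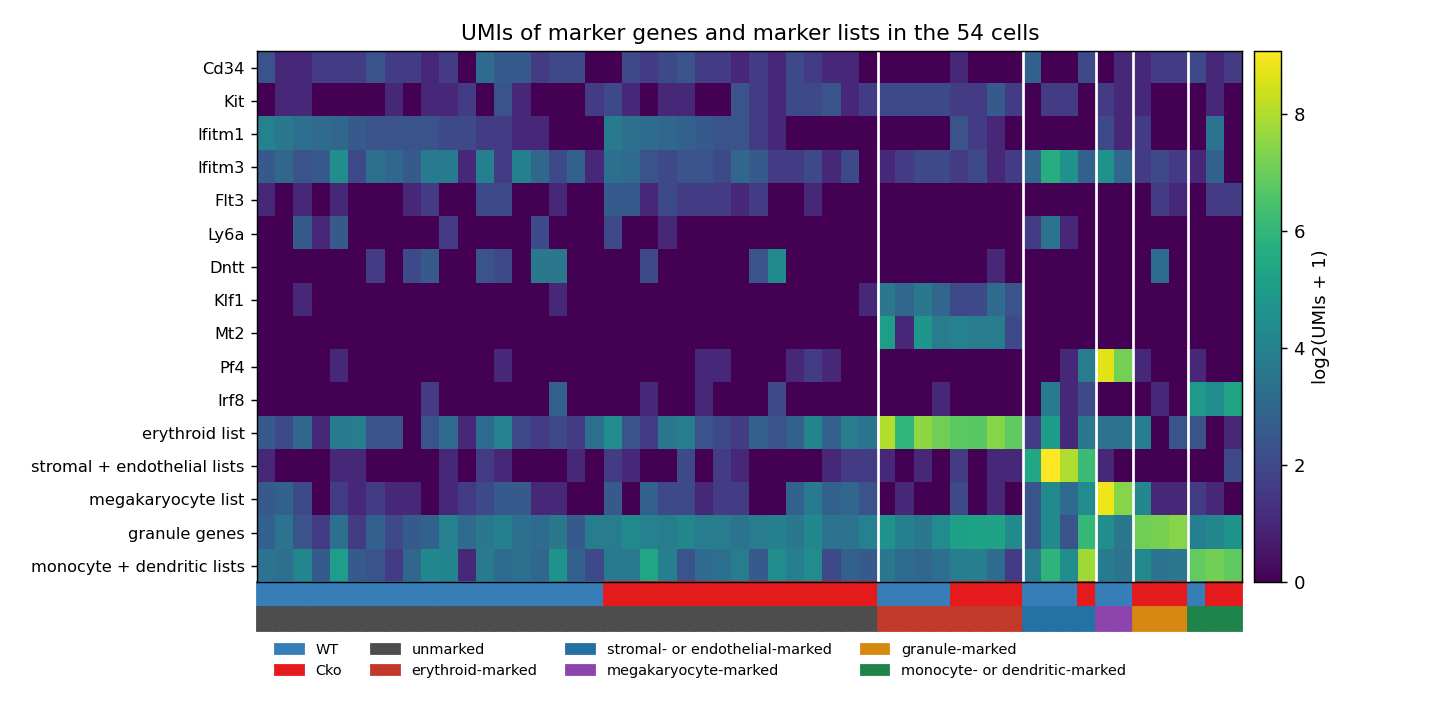
UMIs of marker genes (upper rows) and summed marker lists (lower rows) in the 54 cells, 1 column per cell, as log2(UMIs + 1) in colour. The bars below give the library (29 WT, 25 Cko) and the class of marks. *Cd34* and *Ifitm1* lie mostly in the 34 unmarked cells at the left, *Klf1* and *Mt2* in the 8 erythroid-marked cells, and *Pf4* in 2 megakaryocyte-marked WT cells.

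The erythroid-marked cells numbered 4 in each library. All 8 held *Kit*, at 2 to 5 UMIs, and 1 of them held *Cd34*. They held *Klf1*, the erythroid Krüppel-like factor, in 8 of 8 cells and *Mt2*, a metallothionein, in 8 of 8, whereas *Mt2* was found in none of the 34 unmarked cells. *Flt3* was absent from the counts of all 8, and *Ifitm1* was detected in 0 of the 4 WT and 3 of the 4 Cko cells. Their median depth was 19937 UMIs, against 7812.5 in the unmarked cells. With *Car1* at 0 or 1 UMI they met the rule, while the *Car1* neighbours held *Car1* at 1607 CPM in WT cells and 1847 CPM in Cko cells and *Mt2* at 979.5 and 1841 CPM. When the 54 cells were clustered jointly with the Leiden method, these same 8 cells formed a cluster of their own, named erythroid progenitor-like from 9 markers, at each of 3 resolutions, and 7 of them did so with every cell thinned to 3000 UMIs.

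The 4 stromal- or endothelial-marked cells, 3 WT and 1 Cko, differed among themselves. The WT cell with the most such RNA held 183 UMIs of *Fabp4*, a fatty acid-binding protein, 154 of *Cxcl12*, the chemokine by which marrow stroma retains stem cells, and 12 of *Cdh5*, the endothelial cadherin, and entered the population with 2 UMIs of *Kit* and none of *Cd34*. A second WT cell of this kind held 68 UMIs of *Fabp4* and 50 of *Cxcl12*. The remaining WT cell held 6 UMIs of *Cd34* and 7 of *Cdh5* but none of *Kit*, *Fabp4* or *Cxcl12*. The Cko cell held 18 UMIs of *C1qa*, a complement gene of macrophages, besides 11 of the endothelial receptor gene *Kdr*. None of the 4 held *Ifitm1* or *Flt3*. Scrublet called none of the 4 a doublet. Whether they were single cells or droplets with RNA of several cells was not tested further.

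Among the other marked cells, the 2 with megakaryocyte RNA were WT cells with 400 and 143 UMIs of *Pf4*, the platelet factor, and both held *Kit*, *Gata2* and *Ifitm1*. The 3 with granule gene RNA were Cko cells, each with *Cd34*. The 3 with monocyte and dendritic cell RNA, 1 WT and 2 Cko, held 20 to 38 UMIs of *Irf8*, a transcription factor of monocytes and dendritic cells, and all 3 held *Cd34*. The division of the remaining cells varied with the settings. Clustering gave 5 groups at a resolution of 1, which were 2 at 0.5 and 8 at 1.5, and only the erythroid and monocyte-like names recurred with thinned counts. The group of 17 cells that was named megakaryocyte-like at a resolution of 1 contained both cells with high *Pf4* but also 10 unmarked cells, so its name describes few of its cells.

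The 34 unmarked cells came closest to the pattern of multipotent progenitors. *Cd34* was detected in 30 of them, *Kit* in 21 and both in 17. *Ifitm1* was detected in 26, 16 of 19 in the WT and 10 of 15 in the Cko, and *Flt3* in 18, 8 in the WT and 10 in the Cko. *Dntt*, the terminal transferase of lymphoid progenitors, was found in 7 WT and 3 Cko cells, at up to 19 UMIs in a cell, although *Rag1* and *Il7r*, which lymphoid commitment brings, had 0 and 1 UMIs in the whole WT population and 0 and 2 in the Cko. *Gata2*, a factor of stem cells and of mast, megakaryocyte and erythroid progenitors, was not detected in the 19 unmarked WT cells and had 11 UMIs in 4 of the 15 unmarked Cko cells, and *Cpa3*, the mast cell carboxypeptidase, likewise had 0 UMIs in the WT and 5 in 4 Cko cells. The median depth of the unmarked cells was 5913 UMIs in the WT and 9036 in the Cko, with overlapping ranges.

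**Figure D2:**
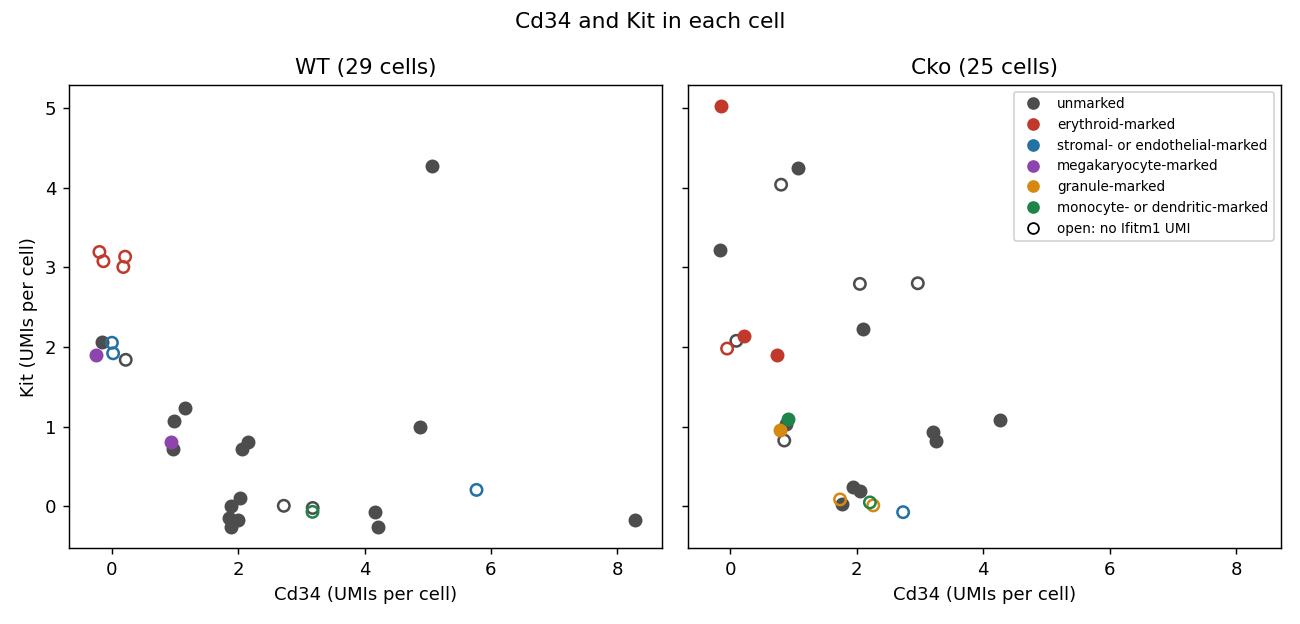
*Cd34* against *Kit* in each cell (UMIs per cell, points moved slightly so that they do not overlap) for the 29 WT and 25 Cko cells, coloured by class of marks, with open circles where no *Ifitm1* UMI was found. The erythroid-marked cells lie along the *Kit* axis at 0 or 1 UMI of *Cd34*, and 27 of the 54 cells hold 2 UMIs of the pair.

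Genes used to define the most primitive stem cells were at or near the limit of detection. *Mecom*, *Procr*, *Adgrl4* and *Adgrg1* were not listed in either library. *Hlf*, a transcription factor of stem cells, was not listed in the WT, and in the Cko had 11 UMIs in 6 cells, all of them unmarked, or 39.5 CPM against 1.35 in other cells. *Slamf1* had 0 UMIs in the WT cells, where 3 counts would correspond to 10.7 CPM, and 1 UMI in the Cko cells. *Ly6a* had 29 UMIs in 8 WT cells and 4 in 2 Cko cells, and 13 of its WT UMIs lay in the 3 stromal- or endothelial-marked cells. In unmarked cells it had 16 UMIs in 5 of 19 WT and 4 in 2 of 15 Cko cells, a ratio of 0.242 (0.0588 to 0.749). With cells thinned to 3000 UMIs, 20.7% of the WT cells of the population and 0 of the 25 Cko cells held it. *Ly6a* was not detected in the *Car1* neighbours, stood at 25.2 and 6.55 CPM in the *Mpo* neighbours and at 16.3 and 18.05 in B-lineage cells. *Cd48* was detected in 16 WT and 18 Cko cells, at 128 CPM in WT cells and 151 CPM in Cko cells. By RNA, then, SCA-1 was found in 10 of the 54 cells, CD150 in 1 and CD48 in 34, and the Fc receptor genes of myeloid progenitors, *Fcgr3* and *Fcgr2b*, had no UMI in the WT cells and 5 and 4 in the Cko cells, none of the latter in an unmarked cell.

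Several receptors and transcription factors of early progenitors stood higher than in the rest of the marrow in both libraries. *Flt3* was at 46.3 CPM in WT cells and 111 CPM in Cko cells against 2.43 and 5.54 CPM in other cells, from 13 UMIs in 8 WT cells and 31 in 14 Cko cells. Among the *Car1* neighbours it had 0 UMIs in the WT and 1 in the Cko. In the *Mpo* neighbours it stood at 90.6 (WT) and 81.9 (Cko) CPM, so *Flt3* was not particular to the population. Its Cko over WT ratio was 2.4 (1.22 to 5) in the population, and in the unmarked cells 1.78 (0.873 to 3.82), an interval that includes 1. *Flt3* was thus found in 22 of the 54 cells, at 1 to 5 UMIs each. *Meis1*, a homeobox partner of HOX proteins, was at 71.2 CPM in WT cells and 32.3 CPM in Cko cells against 2.89 and 3.25 in other cells. *Sox4* was at 189 CPM in WT cells and 158 CPM in Cko cells against 30.9 and 37.4, and *Mycn*, a MYC-family factor, at 17.8 CPM in WT cells and 53.8 CPM in Cko cells against 0.749 and 1.32. In contrast, *Lyl1* at 110.4 CPM in WT cells and 111 CPM in Cko cells stood close to the 71.04 and 85.9 CPM of other cells, and *Tal1*, which erythroid cells also use, at 32.1 CPM in WT cells and 46.6 CPM in Cko cells against 61.8 and 20.04.

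Summed over the genes of the stem and multipotent progenitor list that both libraries hold, the level was 4178 (WT) and 3307 (Cko) CPM, and 5527 (WT) and 4315 (Cko) in unmarked cells. The *Mpo* neighbours had 4302 (WT) and 3490.2 (Cko), the *Car1* neighbours 1728 (WT) and 1543 (Cko), and all other cells 1593 (WT) and 1848 (Cko). By this sum the whole population stood beside the *Mpo* neighbours, and the list holds abundant genes such as *Ifitm3*, *Ly6e* and *Lmo2* that weigh on it. *Kit* was higher than in the *Mpo* neighbours, at 118 CPM in WT cells and 139.9 CPM in Cko cells against 55.4 and 36.05. *Cd34* was higher than in the *Car1* neighbours, at 210.2 CPM in WT cells and 139.9 CPM in Cko cells against 1.03 and 1.31. Against the other neighbour group neither gene was higher in both libraries. *Cd34* stood at 307 (WT) and 328 (Cko) CPM in the *Mpo* neighbours, and *Kit* at 123 (WT) and 84.9 (Cko) CPM in the *Car1* neighbours. The rule itself used both genes. Among genes it did not use, *Ifitm1* and *Flt3* were also far lower in the *Car1* neighbours, as given above, and *Tal1* was higher there. The *Mpo* neighbours, by the values above, were not low in *Ifitm1* or *Flt3*.

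**Figure D3:**
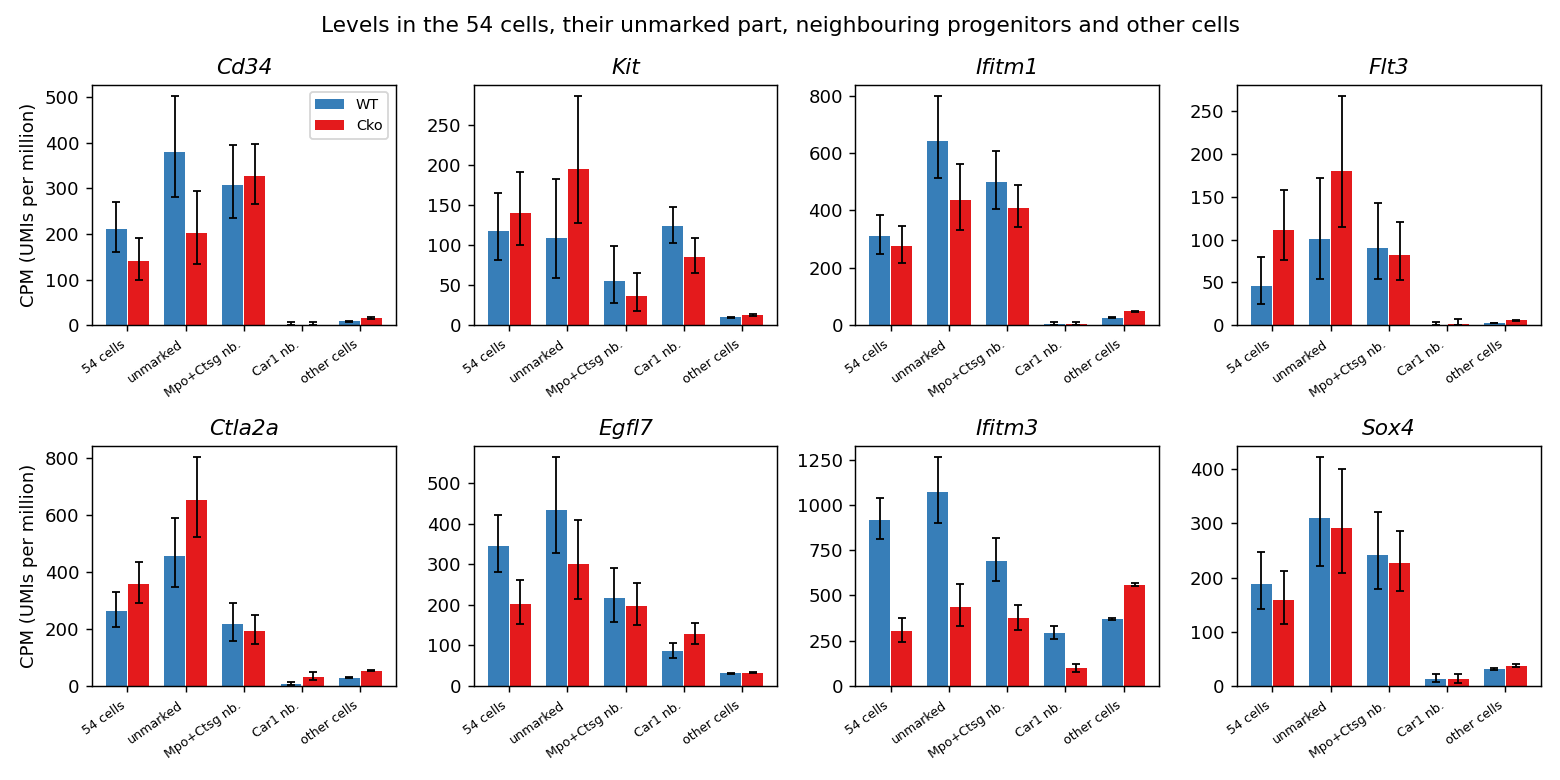
Levels of 8 genes in CPM of the cells shown in the WT (blue) and the Cko (red), for the 54 cells, the 34 unmarked cells among them, the *Mpo*+*Ctsg* and *Car1* neighbours and all other cells. Lines are 95% exact Poisson intervals and cover counting error only. *Ifitm1* and *Sox4* are higher in the *Mpo* neighbours than in the 54 cells and low in the *Car1* neighbours, and *Ifitm3* is lower in the Cko in each of the progenitor groups but higher in the Cko among other cells.

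Across the 667 genes with at least 100 UMIs in the population, 22 (3.3%) were at least 2-fold higher than in all other cells in both libraries. Many of these other cells are erythroid or granulocytic, and against cells with under 1% hemoglobin the number was 9. *Ctla2a*, which encodes a protein related to cysteine protease propeptides, led with 264 CPM in WT cells and 359 CPM in Cko cells against 28.4 and 53.7 CPM. It was detected in 16 of 19 unmarked WT cells and in all 15 unmarked Cko cells, at 457 and 652 CPM, and was lower in the *Mpo* neighbours, at 216 and 193 CPM. *Egfl7*, a secreted factor shared by progenitors and endothelium, stood at 346 CPM in WT cells and 201 CPM in Cko cells against 30.5 and 32.5. *Ramp1*, a partner of the receptor for calcitonin gene-related peptide, was at 260.02 CPM in WT cells and 509 CPM in Cko cells, but higher in the *Mpo* neighbours, at 559 and 718. *H2afy*, which encodes the histone variant macroH2A, was detected in 26 WT and 25 Cko cells at 1208 CPM in WT cells and 821 CPM in Cko cells, with 2541 and 1576 in the *Mpo* neighbours and 172 and 193 in the *Car1* neighbours.

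Several of the other leading genes rested on the marked cells. *Sparc*, a matrix glycoprotein, had 156 UMIs in 4 WT cells and 24 in 2 Cko cells but 1 UMI in the unmarked cells of each library. *Sepp1*, a selenium carrier, had 62 of its 106 WT UMIs in a single cell, and *Igfbp4*, an IGF-binding protein, 113 of 183. *Gng11*, a G protein subunit, had 80 UMIs in 10 WT cells and 22 in 9 Cko cells, of which the unmarked cells held 10 and 9. *Apoe*, the apolipoprotein, was less dependent on them in the Cko, since of its 169 Cko UMIs 75 lay in the Cko cell with stromal, endothelial and macrophage RNA and 75 in the unmarked cells. In the WT, 44 of its UMIs lay in the 3 stromal- or endothelial-marked cells and 20 in the unmarked cells. *Sepw1*, a small selenoprotein, and *Hsp90ab1*, a cytosolic chaperone, stood more than 2-fold above other cells in the unmarked cells as well. *Hsp90ab1* was at 2055 CPM in WT cells and 2289 CPM in Cko cells in the population and 2054 and 2255 CPM in unmarked cells, against 935 and 955 in other cells. The remaining named genes, *Snhg4*, *2410006H16Rik* and *Vamp5*, were at 178 to 703 CPM, and *Vamp5* was higher still in the *Car1* neighbours, at 617 and 664.

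The cells were rich in ribosomal protein RNA. The median share of a cell's UMIs from ribosomal protein genes was 42.1% in the WT and 46.7% in the Cko, compared with 23.3% and 25.8% in other cells, and it was 43.7% and 45.3% in the *Mpo* neighbours. Genes of the G2 and M phases had a median per-cell level of 4316 (WT) and 3872 CPM (Cko), below the 8290.1 and 7589 of the *Car1* neighbours and the 11736 and 7167 of other cells. The cells were uneven in this respect, with between 3 and 241 such UMIs in a cell. S-phase genes, 41 listed in the WT and 42 in the Cko, had medians of 3251 and 2047 CPM. Of the 51 G2 and M phase genes, 9 had 100 or more UMIs, and none of the 9 was 2-fold higher or lower in the Cko, where the shares over all 667 genes compared were 2.85% and 2.55%, so nothing can be read from 9 genes.

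The genotypes were compared over the same 667 genes. In the Cko, 19 genes (2.85%) were at least 2-fold higher and 17 (2.55%) at least 2-fold lower than in the WT, and the median log2 ratio of all 667 was -0.10. No p-value can be given with 1 library of each genotype. Most of the genes with the highest and lowest ratios were either abundant RNAs of other marrow cells or came from a few marked cells. In the 34 unmarked cells, 295 genes had the UMIs needed, and 3 were higher (1.02%) and 4 lower (1.36%). Of the 19 and 17 genes above, 2 were still higher and 3 still lower. Genes that fell under the UMI limit in the unmarked cells were not compared there, so their absence does not show that their ratio fell.

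Genes of neutrophils and other myeloid cells headed the higher side. *Retnlg*, a resistin-like gene of neutrophils, had 3 UMIs in 3 WT cells and 114 in 16 Cko cells, a ratio of 38.3 (12.8 to 188). *BC100530*, a member of the stefin A family, had 3 UMIs in 3 WT cells and 97 in 9 Cko cells, 46 of them in a single Cko cell. *S100a9* and *S100a8*, which form calprotectin and whose share the rule capped, were at ratios of 4.81 (3.61 to 6.5) and 3.17 (2.62 to 3.86), *Lyz2*, lysozyme, at 3.37 (2.36 to 4.89), and *Tyrobp*, an adaptor of myeloid receptors, at 3.61 (2.56 to 5.18). Of the *Tyrobp* UMIs, 110 lay in the 3 monocyte- or dendritic-marked cells. Of the 137 *Lyz2* UMIs in the Cko, 67 lay in 1 cell, and without that cell its log2 ratio fell from 1.75 to 0.88, under the 2-fold limit. Neutrophil RNA was also higher in the Cko among all other cells, for example 187 against 828 CPM for *Retnlg* and 21639 against 55066 for *S100a8*. In B-lineage cells, which do not make these RNAs, *S100a8* stood at 7103 and 8856 CPM. Unlike the population, the B-lineage cells had no limit on granule genes, and they also held *Elane* at 382 (WT) and 535 (Cko) CPM. In the unmarked cells *S100a8* had a ratio of 1.02 (0.728 to 1.43), *S100a9* 1.72 (1.14 to 2.65) and *Lyz2* 1.5 (0.905 to 2.54), and *BC100530* had 2 UMIs in the WT and 4 in the Cko. *Retnlg* still had 3 UMIs in 3 unmarked WT cells and 17 in 10 unmarked Cko cells. The part of free neutrophil RNA in these values was not tested.

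The other higher genes among the 10 first were processed copies of ribosomal protein genes, *Gm7536*, *Rpl10-ps3*, *Rps18-ps3* and *Gm5428*, at ratios between 2.62 and 3.44. Their reads can also match the parent genes, so the counts are uncertain. They were higher in the Cko by 2 to 2.76 times among all other cells as well.

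**Figure D4:**
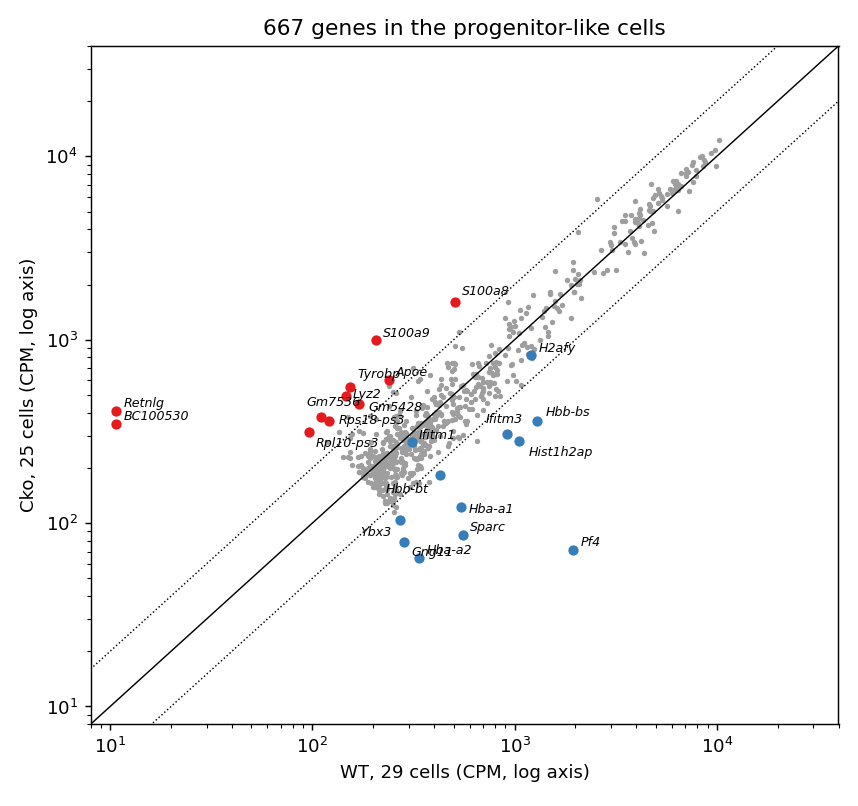
Level of each of the 667 genes in the 29 WT cells (horizontal) and the 25 Cko cells (vertical), in CPM on log axes, with lines of equality and of 2-fold difference (dotted). Named genes are coloured by the side on which they lie. *Retnlg* and *BC100530* lie far above the line with 3 UMIs each in the WT, and *Pf4* far below it with 400 of its 547 WT UMIs in a single cell.

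On the lower side, *Pf4* had 547 UMIs in 6 WT cells and 20 in 7 Cko cells, of which the 2 megakaryocyte-marked WT cells held 543, and in the unmarked cells it had 2 and 6 UMIs. *Sparc* was at 0.155 (0.0964 to 0.239) and *Gng11* at 0.277 (0.164 to 0.449). The unmarked WT cells held 1 of the 156 WT UMIs of *Sparc* and 10 of the 80 of *Gng11*. Without the cell richest in each gene, the log2 ratios of -2.69 and -1.85 came to -1.73 and -1.42. *Ybx3*, which encodes a cold-shock domain protein, was at 0.384 (0.241 to 0.597) and had 12 and 5 UMIs in unmarked cells. The hemoglobin genes, whose share the rule capped too, were lower, with *Hbb-bs* at 0.279 (0.221 to 0.349) and *Hba-a2* at 0.191 (0.108 to 0.318). Their summed share was 0.26% of UMIs in the WT and 0.0728% in the Cko population. In B-lineage cells it was 0.299% and 0.0812%, but these were held under the same 1% limit, so the similar level was partly set by the definition. Other cells as a whole, which had no such limit, held 16.7% and 6.33%. *Hist1h2ap*, a replication-dependent histone gene, was at 0.264 (0.203 to 0.34), and it was lower in the Cko among all other cells as well, at 1296 against 436 CPM.

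*Ifitm3* was lower in the Cko in the population and in its unmarked cells. It had 258 UMIs in 29 WT cells and 85 in 23 Cko cells, that is 919 CPM in WT cells and 305 CPM in Cko cells, a ratio of 0.332 (0.257 to 0.426). Of the WT UMIs, 79 lay in the stromal- or endothelial-marked cells and 31 in the megakaryocyte-marked cells. In the unmarked cells alone it was detected in 19 of 19 WT cells and 14 of 15 Cko cells, with a median of 1130.5 CPM (lowest 169.9, highest 2905) in the WT and 419.6 CPM (lowest 0, highest 1232) in the Cko. The cells of the 2 libraries overlapped, and the ratio of their sums was 0.406 (0.294 to 0.556). The ratio was also under 1 in the *Car1* neighbours, at 0.328 (0.251 to 0.425), and in the *Mpo* neighbours, at 0.542 (0.419 to 0.7), in B-lineage cells it was 0.748, and over all other cells it was 1.51. With 3 or more UMIs of *Cd34* and *Kit* required, which leaves 15 WT and 12 Cko cells, the log2 ratio of the population fell short of the 2-fold limit, at -0.59 against -1.59. These intervals do not include the variation between mice, which 1 mouse of each genotype cannot give.

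**Figure D5:**
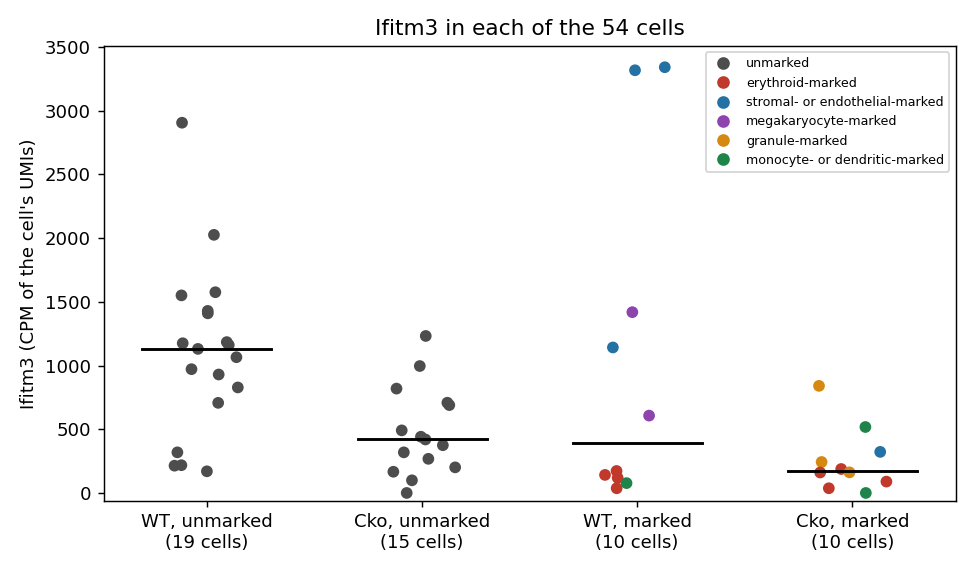
Level of *Ifitm3* in each of the 54 cells (CPM of the cell's own UMIs) by library, for unmarked and marked cells, with lines at the medians and colours by class of marks. The unmarked WT cells centre on 1130.5 CPM and the unmarked Cko cells on 419.6, with overlap, and the highest values among marked cells are stromal- or endothelial-marked WT cells.

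Other interferon-linked genes differed less evenly. Of the 12 genes of this list, 4 had 100 or more UMIs, 1 of them (*Ifitm3*) was lower by the 2-fold limit and none higher, against 2.55% lower over all 667 genes. The list's median log2 ratio was -0.22, against -0.10 for all genes. Its summed level in unmarked cells was 3643 (WT) and 2089.9 (Cko) CPM. *Ifitm1* had a ratio of 0.891 (0.647 to 1.23) in the population and 0.675 (0.474 to 0.956) in unmarked cells, and *Ly6e*, a GPI-anchored protein gene, 0.827 (0.665 to 1.03) and 0.565 (0.402 to 0.786). *Ifitm2*, in contrast, was at 1.1 (0.86 to 1.42) and 0.94 (0.666 to 1.32).

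In unmarked cells, *H2afy* was also lower in the Cko, with 296 UMIs in 19 of 19 WT cells and 148 in 15 of 15 Cko cells, a ratio of 0.483 (0.394 to 0.591). Over the whole population the ratio was 0.68 (0.573 to 0.807), it was 0.62 (0.546 to 0.704) in the *Mpo* neighbours and 1.29 over all other cells. *Hist1h2ap* and *Hbb-bs* were the other genes past the 2-fold limit on this side. On the higher side were *2410006H16Rik*, a noncoding RNA gene, at 2.41 (1.69 to 3.48), and *Wdr89* and *Gm9843*, with log2 ratios of 1.08 and 1.05. *Wdr89* and *Gm9843* were chosen for naming after their values were seen. *2410006H16Rik* was higher in the Cko among all other cells too, at 141 against 249.7 CPM. *Apoe*, named among the genes of the population, had 20 UMIs in 4 of 19 unmarked WT cells and 75 in 10 of 15 unmarked Cko cells, a ratio of 3.62 (2.19 to 6.27), and all other cells differed the same way, at 41.5 against 139 CPM.

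S1P cleaves the transcription factors SREBP and ATF6, which activate genes of sterol and fatty acid synthesis and chaperones of the endoplasmic reticulum, and genes of both groups were examined in the population. Of the 24 SREBP target genes, 14 appear in the WT file and 9 in the Cko file, and none present in both had the 100 UMIs needed for the 2-fold comparison. Over the targets listed in each library, a median cell held 273 (WT) and 221 CPM (Cko), and other cells 191 and 70.8. The WT values cover 14 genes and the Cko values 9, so they are not a comparison over the same genes. *Fdps*, farnesyl diphosphate synthase, had 20 UMIs in 6 WT cells and 16 in 10 Cko cells. Of the 18 chaperone genes linked to ATF6, 2 had 100 or more UMIs and neither passed the limit, which 2.85% of all genes compared passed upward and 2.55% downward. *Calr*, calreticulin, was at 338 CPM in WT cells and 298 CPM in Cko cells, a ratio of 0.88 (0.647 to 1.19), and *Hspa5*, the main chaperone of the endoplasmic reticulum, at 139 CPM in WT cells and 100.4 CPM in Cko cells, a ratio of 0.723 (0.429 to 1.21). Both intervals include 1. The summed chaperone level, over 17 genes listed in the WT and 16 in the Cko, was 1834 (WT) and 1370.3 (Cko) CPM. The median cell had 1522 and 1249. Whether the Cre driver was active in any of these cells was not tested.

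A sum over few cells can be set by 1 or 2 of them. Of the immediate early genes, which respond to stimulation and to tissue dissociation, 17 were listed in the WT and 14 in the Cko. They summed to 1104 (WT) and 474 (Cko) CPM, yet the median cell had 235 and 369, the opposite order. The WT values cover 17 genes and the Cko values 14, so neither pair is a comparison over the same genes. By counts, the median cell held 2 (WT) and 4 (Cko) such UMIs. All 54 WT UMIs of *Fos* lay in 2 marked cells. *Il6st*, the shared receptor chain of the interleukin 6 family, had 39 UMIs in 6 WT cells and 4 in 4 Cko cells. The lymphoid progenitor list, by contrast, was higher in the Cko by its sum in the population, at 645 (WT) and 904 (Cko) CPM, by the median cell, at 473 and 889, and in unmarked cells, at 992 (WT) and 1228 (Cko), and no gene of it had the 100 UMIs needed for the 2-fold comparison. Among its members, *Dntt* had a ratio of 0.904 (0.556 to 1.46), *Ltb*, the lymphotoxin beta gene, 2.11 (0.953 to 5.03), and *Cd37*, a tetraspanin of lymphocytes, 1.93 (1.14 to 3.34). The same list summed to 369 (WT) and 543 (Cko) in other cells.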

How the data were processed

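Bone marrow cells of 1 WT and 1 Cko mouse were profiled with the Chromium Single Cell 3′ v2 chemistry. The authors aligned the reads to GRCm38 with Cell Ranger (version not given in the sources used here) and deposited 1 table of UMI counts per library, with genes as rows and cells as columns. The deposited counts are not normalized. The row and column of totals were left out, barcodes with under 200 genes were removed, and the rule for the cells was applied to both tables (pandas 2.3.3 and numpy 2.4.6 under Python 3.11.15; intervals from scipy 1.17.1). The 54 cells and the marker lists were chosen with earlier results of these data known, and the limits behind the marks of other lineages were set after seeing the counts.

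Levels are UMIs summed over cells per 1000000 of their UMIs (CPM), and ratios of CPM carry an exact conditional 95% interval, levels an exact Poisson and shares an exact Clopper-Pearson one. All cover counting error only, and UMIs of a gene gather in few cells, so intervals are too narrow even for these cells. Without replicates no test was made. Genes with 100 or more UMIs over the 54 cells were compared, and a ratio of 2 or of 0.5 was the limit. Named were the 10 highest and 10 lowest Cko over WT ratios with a UMI in 10% of the cells, the 15 genes with the highest excess over other cells in both libraries, and members of the lists. Clusters came from scanpy 1.11.5 (1500 variable genes, 20 components, 15 neighbours, Leiden resolution 1), with Scrublet run at an expected doublet share of 5%. On simulated counts for 667 genes of the Cko and WT comparison, of which 200 were changed, every changed gene had the right sign, and 97.00% of intervals held the true ratio. This checks the calculation only, and the intervals remain too narrow for the measured cells, as stated above. Coordinates are from the GENCODE annotation of GRCm38.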

Additional observations from a re-analysis of the deposited data

How the results depend on the processing

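No paired analysis was possible because each genotype is 1 library, and for the same reason no library could be left out. No named gene changed sign under an alternative in which it kept the UMIs needed for the comparison, and *Pf4*, which fell under that limit in unmarked cells, had 2 UMIs there in the WT and 6 in the Cko. The log2 ratio of the share of cells (0.56, with an interval that includes 0) turned to -0.36 for unmarked cells among those with under 1% hemoglobin. The genes higher in the Cko (19) numbered 4 at 300 or more UMIs, 76 at 30 or more, 11 with 3 or more UMIs of *Cd34* and *Kit* required, and 3 in unmarked cells. The genes lower in the Cko (17) numbered 4 at 300 or more UMIs, 131 at 30 or more, 8 with no *Car1* UMI allowed, 10 without the stromal- or endothelial-marked cells and 4 in unmarked cells. The 22 genes above other cells numbered 9 against cells with under 1% hemoglobin and 3 at 300 or more UMIs. The 5 clusters became 2 at a resolution of 0.5 and 8 at 1.5. A higher UMI limit tests fewer genes and a lower one more, and fewer cells leave fewer genes above the limit (295 in unmarked cells). By construction this moves these counts, and the cause of the other shifts was not tested. Scaling without hemoglobin, ribosomal protein and mitochondrial genes moved the median log2 ratio of all genes from -0.10 to 0.02 and gave 25 genes higher and 15 lower. The alternatives with unmarked cells, without the stromal- or endothelial-marked cells and without the granule-marked cells were chosen after seeing the data. With 29 and 25 cells, genes with few UMIs could not be compared at this depth.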
